A study of Mus musculus with 27 samples.

Results

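The 10 genes of T cell costimulation and activation described here were measured across 9 groups of mouse T cell cultures. They are the receptor genes Icos, Cd28, Cd27, Tnfrsf4 (OX40), Tnfrsf9 (4-1BB), Tnfrsf18 (GITR) and Tnfrsf1b (TNF receptor type II), and the genes Cd40lg, Cd69 and Cd44. They were chosen by symbol, and 10 of the 26802 genes in the table of read counts matched. All 10 passed the filter on low counts, which left 10493 genes to test. Cd40lg encodes a ligand rather than a receptor, and Cd69 and Cd44 encode surface proteins used as activation markers, so "receptor" does not cover every gene.

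A T cell that meets antigen needs a signal through CD28 beside the one through its antigen receptor. Activated cells then place further receptors on their surface: ICOS, of the CD28 family, engages PI3 kinase, while the TNF receptor family members recruit TRAF adaptors and switch on NF-kB. CD40L on helper cells instructs B cells and dendritic cells, CD69 retains cells in tissue by opposing the receptor S1PR1, and CD44 binds hyaluronan.

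The study compared T cells that lack Raptor or Rictor with wild-type (WT) cells. Raptor is the defining subunit of the growth-regulating kinase complex mTORC1, and Rictor has that place in mTORC2. Raptor KO mice are B6-CD4-cre-Rptorfl/fl (allele Rptortm1.1Dmsa), Rictor KO mice are B6-CD4-cre;Rictorfl/fl (allele Rictortm1.1Klg), and WT mice are B6-wt, with no Cre named. Both knockouts carry the transgene Tg(Cd4-cre)1Cwi, which is active in thymocytes before the CD4 and CD8 lineages part and so reaches both subsets. T cells of lymph node and spleen, pooled, were enriched as CD4+ or CD8+ by removing other cells, cultured for 48 h and sorted as live. Stimulated cultures were set on plates coated with antibodies against CD3 and CD28 at 10 µg/ml, without IL-7, and resting cultures had IL-7, a survival cytokine, at 5 ng/ml and no antibody. Every stimulated-against-resting difference therefore includes the absence of IL-7. The groups are stimulated Raptor KO, Rictor KO and WT CD8+ cells, resting Raptor KO and WT CD8+ cells, stimulated Raptor KO and WT CD4+ cells, and resting Raptor KO and WT CD4+ cells, each with 3 libraries. The labels name neither the animal behind each library nor its age, and the p-values therefore reflect spread among these samples, which may be technical.

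Libraries held 8640699 to 16817347 counts, of which the ribosomal RNA precursor Rn45s took 81.1% to 88.4%. The other genes had 1522199 to 2515583 counts per library. Each level is in CPM, a count relative to the TMM-adjusted library total of the tested genes, without Rn45s. Differences are log2 fold changes ± SE with adjusted p, from edgeR's quasi-likelihood test with Benjamini-Hochberg adjustment over all 10493 genes, and a gene is said to rise or fall where adjusted p is under 0.05. The summed T cell markers (Cd3d, Cd3e, Cd3g, Trac and Cd247) were present in all 9 groups, and Cd4 with Zbtb7b or Cd8a with Cd8b1 followed the labelled subset: the CD4 pair summed to 1.22 to 16.6 CPM in CD8+ libraries and 195 to 418 CPM in CD4+ libraries. Rptor counts did not pass the test in Raptor KO cells (19.8 ± 2.68 CPM, against 23.5 ± 5.27 CPM in WT, stimulated CD8+, SD, n = 3 each), nor did Rictor counts in Rictor KO cells (39.1 ± 1.61 CPM, against 45.0 ± 7.19 CPM in WT). Counts over a whole gene can come from exons outside the deleted part, so they do not check the genotypes, which rest on the labels.

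In GRCm38, 4 of the genes lie on chromosome 4, where Tnfrsf1b (145213463 to 145246870, minus strand), Tnfrsf9 (150914562 to 150946102, plus strand), Tnfrsf4 (156013843 to 156016612, plus strand) and Tnfrsf18 (156026164 to 156028895, plus strand) are found. Tnfrsf4 and Tnfrsf18 stand 9551 bases apart with no protein-coding gene between them. Cd28 (60716800 to 60773359) and Icos (60977927 to 61000320) are both on the plus strand of chromosome 1, with 204567 bases between them that hold Ctla4. Cd27 (125232622 to 125237010) and Cd69 (129267325 to 129275436) lie on the minus strand of chromosome 6, Cd44 (102811141 to 102901665) on the minus strand of chromosome 2, and Cd40lg (57212143 to 57224042) on the plus strand of chromosome X. Tnfrsf18 shares 414 exon bases with the antisense gene Gm16008, which had 88 counts over all libraries, and Cd27 shares 129 exon bases with Mir8113. The counter and strandedness were not given in the sources used, so reads from those stretches could have been dropped or assigned to either gene.

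**Figure D1:**
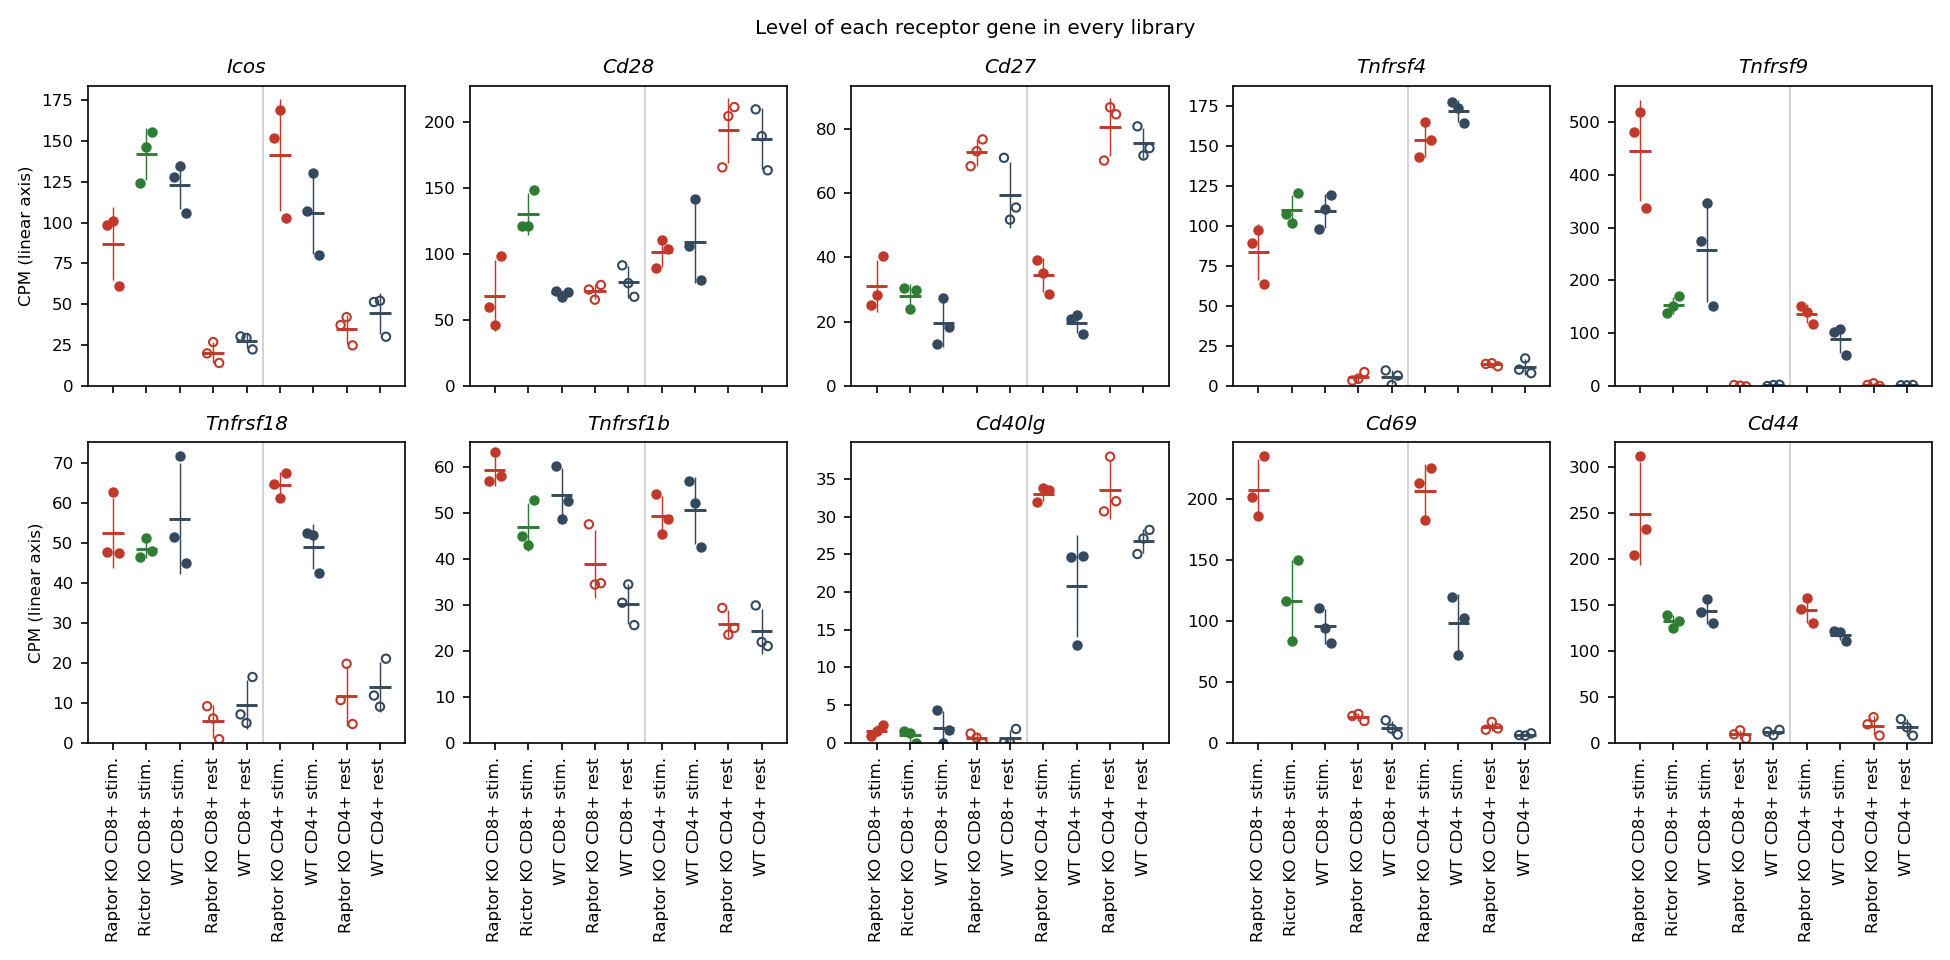
CPM (linear axis from 0) of the 10 genes in each of the 27 libraries. Points are libraries (filled: stimulated, open: resting; red: Raptor KO, green: Rictor KO, dark: WT), horizontal bars are group means and thin lines ± SD (n = 3). The 7 genes Icos, Tnfrsf4, Tnfrsf9, Tnfrsf18, Tnfrsf1b, Cd69 and Cd44 stand higher in stimulated than in resting groups, Cd27 lower, and Cd40lg near 0 in CD8+ cells.

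Stimulation raised 7 of the 10 genes in each of the 4 comparisons between stimulated and resting cells, and the same 7 genes were higher in all 4: Icos, Tnfrsf4, Tnfrsf9, Tnfrsf18, Tnfrsf1b, Cd69 and Cd44. Cd27 was lower in all 4. Tnfrsf9 passed the filter on low counts only through stimulated groups, so its calls add no support to these counts. Counting both directions, 8 of 10 genes changed in Raptor KO CD8+ cells, where 55.6% of all tested genes changed, and 8 of 10 in WT CD8+ cells, against 62.8%. In Raptor KO CD4+ cells 9 of 10 changed, against 52%, and in WT CD4+ cells 9 of 10, against 64.9%. By direction, 29.5% of all tested genes were higher and 26% lower in Raptor KO CD8+ cells, and 32% and 30.8% in WT CD8+ cells. In Raptor KO CD4+ cells 27.9% were higher and 24.1% lower, and in WT CD4+ cells 32.4% and 32.5%.

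Tnfrsf9 had the widest difference of the 10 in every stimulation comparison. 4-1BB, its product, sustains the survival of activated CD8+ cells. Stimulated Raptor KO CD8+ libraries had 480.5, 517.5 and 337.2 CPM of Tnfrsf9, against 2.44, 1.35 and 0 CPM in resting ones, and stimulated WT CD8+ libraries had 274.7, 346.3 and 152.4 CPM, against 0.709, 2.46 and 3.05 CPM at rest. In CD4+ cells it stood at 152.7, 140.6 and 117.6 CPM in stimulated Raptor KO libraries, against 2.67, 5.88 and 0.782 CPM at rest, and at 101.8, 108.7 and 60.0 CPM in stimulated WT libraries, against 2.09, 1.94 and 2.57 CPM at rest. Every stimulated library of Tnfrsf9 lay far above every resting one of its group. The log2 fold changes of Tnfrsf9 were 8.24 ± 0.82 in Raptor KO CD8+ cells and 6.89 ± 0.69 in WT CD8+ cells. In CD4+ cells they were 5.31 ± 0.56 in Raptor KO and 5.29 ± 0.64 in WT. Tnfrsf9 passed the filter on low counts only through stimulated groups, so no p-value is given for these folds. The resting values of Tnfrsf9 rest on 6 counts in Raptor KO CD8+, 9 in WT CD8+, 16 in Raptor KO CD4+ and 11 in WT CD4+ cells, so the size of these folds is known only loosely.

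RefSeq start-site windows (GRCm38.p6, 250 bases before to 50 after each start, printed in the direction of the gene) were matched for 6 of the 10 genes, in 7 windows. Tnfrsf9 has 2 of them, and they are printed with that of Tnfrsf4, which rose beside it, and that of Cd27, which fell. Capitals mark letters that match a searched motif on either strand: GGG, any 3 bases and TTCC for NF-kB, TGANTCA for AP-1, or TTTTCC for NFAT.
Tnfrsf9, chr4:150927749-150928048, plus strand: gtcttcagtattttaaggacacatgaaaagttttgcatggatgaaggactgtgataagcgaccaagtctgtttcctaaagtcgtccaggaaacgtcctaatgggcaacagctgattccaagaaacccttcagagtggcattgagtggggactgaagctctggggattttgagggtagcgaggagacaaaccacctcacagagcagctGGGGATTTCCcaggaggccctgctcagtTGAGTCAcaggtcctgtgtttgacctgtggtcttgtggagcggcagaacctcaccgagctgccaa
Tnfrsf9, chr4:150919905-150920204, plus strand: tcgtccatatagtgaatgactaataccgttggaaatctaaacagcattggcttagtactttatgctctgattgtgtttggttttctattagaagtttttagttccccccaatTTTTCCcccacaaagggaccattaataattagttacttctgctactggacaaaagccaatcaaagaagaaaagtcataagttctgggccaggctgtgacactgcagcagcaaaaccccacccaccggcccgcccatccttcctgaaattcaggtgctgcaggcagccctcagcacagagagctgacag
Tnfrsf4, chr4:156013445-156013744, plus strand: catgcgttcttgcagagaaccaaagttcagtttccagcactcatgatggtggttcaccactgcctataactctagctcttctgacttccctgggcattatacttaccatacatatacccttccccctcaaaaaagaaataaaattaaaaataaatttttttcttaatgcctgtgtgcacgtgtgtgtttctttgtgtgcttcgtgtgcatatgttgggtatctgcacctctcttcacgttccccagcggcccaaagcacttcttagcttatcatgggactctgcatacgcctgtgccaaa
Cd27, chr6:125236978-125237277, minus strand: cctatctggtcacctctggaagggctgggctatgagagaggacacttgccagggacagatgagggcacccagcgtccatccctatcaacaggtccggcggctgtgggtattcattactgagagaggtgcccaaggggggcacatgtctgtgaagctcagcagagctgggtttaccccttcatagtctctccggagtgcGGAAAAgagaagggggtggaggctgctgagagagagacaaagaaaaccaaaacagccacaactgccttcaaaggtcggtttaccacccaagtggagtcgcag

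The NF-kB letters were found in 1 of the 7 windows, the downstream one of Tnfrsf9, 43 bases before its start. The AP-1 letters were in the same window, 15 bases before the start. Over all 32851 mouse windows of that length, 5.56% hold the NF-kB letters and 7.81% the AP-1 letters. The NFAT letters were in 4 of the 7 windows, against 23.4% of all windows. A match describes the letters only and says nothing of binding.

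Tnfrsf4 encodes OX40, which prolongs the response of helper cells. It had 89.6, 97.2 and 63.9 CPM in stimulated Raptor KO CD8+ libraries, against 3.66, 4.73 and 8.91 CPM in resting ones, and 98.1, 110.3 and 119.1 CPM in stimulated WT CD8+ libraries, against 9.93, 0.821 and 6.71 CPM at rest. CD4+ libraries were higher, at 143.0, 164.7 and 153.5 CPM in stimulated Raptor KO cells and 177.1, 173.8 and 164.3 CPM in stimulated WT cells. All 4 log2 fold changes of Tnfrsf4 lay between 3.48 ± 0.26 (Raptor KO CD4+, adjusted p = 1.09e-12) and 4.16 ± 0.34 (WT CD8+, adjusted p = 2.71e-13). Tnfrsf18, the gene next to it, rose at lower levels: stimulated group means were 52.6 to 56.1 CPM in Raptor KO and WT CD8+ cells and 49.1 to 64.6 CPM in CD4+ cells, and resting means were 5.37 to 14.0 CPM. Its log2 fold changes ranged from 1.75 ± 0.36 in WT CD4+ cells to 3.16 ± 0.50 in Raptor KO CD8+ cells.

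Tnfrsf1b, whose product binds membrane TNF, changed least among the genes that rose. Its log2 fold changes were 0.60 ± 0.17 in Raptor KO CD8+ cells (adjusted p = 0.00254), 0.85 ± 0.17 in WT CD8+ cells, 0.93 ± 0.18 in Raptor KO CD4+ cells and 1.05 ± 0.18 in WT CD4+ cells. Resting cells already held 24.3 to 38.9 CPM of Tnfrsf1b on average. Cd27, a TNF receptor family member of naive and memory cells, went the other way. Stimulated Raptor KO CD8+ libraries had 25.1, 28.2 and 40.4 CPM of Cd27, against 68.3, 73.0 and 76.7 CPM at rest, and stimulated WT CD4+ libraries had 20.8, 22.3 and 16.2 CPM, against 80.7, 71.6 and 74.0 CPM at rest. Stimulated libraries lay below resting ones in all 4 groups. The log2 fold changes of Cd27 were -1.17 ± 0.19 in Raptor KO CD8+ cells, -1.64 ± 0.20 in WT CD8+ cells, -1.23 ± 0.19 in Raptor KO CD4+ cells and -1.96 ± 0.19 in WT CD4+ cells (highest adjusted p = 1.33e-06).

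The CD28 family pair moved in opposite directions in CD4+ cells. Icos, whose product drives follicular helper cells, stood at 151.5, 168.9 and 103.0 CPM in stimulated Raptor KO CD4+ libraries, against 37.4, 42.2 and 25.0 CPM at rest, and at 107.0, 130.1 and 80.4 CPM in stimulated WT CD4+ libraries, against 51.5, 52.3 and 30.3 CPM at rest. Its log2 fold changes were 2.05 ± 0.29 in Raptor KO CD8+ cells, 2.16 ± 0.27 in WT CD8+ cells, 1.99 ± 0.26 in Raptor KO CD4+ cells and 1.25 ± 0.25 in WT CD4+ cells, all past the threshold. Cd28 fell in CD4+ cells, by 0.94 ± 0.19 in Raptor KO (adjusted p = 0.000146) and by 0.78 ± 0.19 in WT (adjusted p = 0.000654) on the log2 scale. In CD8+ cells the Cd28 differences were -0.05 ± 0.20 in Raptor KO, with a 95% interval of -0.47 to 0.36, and -0.16 ± 0.20 in WT, with an interval of -0.57 to 0.24, and libraries overlapped.

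The activation markers rose in every group. Stimulated libraries held 182.7 to 235.2 CPM of Cd69 in Raptor KO cells of both subsets and 72.2 to 120.0 CPM in WT cells, against 10.7 to 23.7 CPM in resting Raptor KO libraries and 5.81 to 18.4 CPM in resting WT libraries. The log2 fold changes of Cd69 were 3.28 ± 0.25 in Raptor KO CD8+, 2.98 ± 0.28 in WT CD8+, 3.94 ± 0.26 in Raptor KO CD4+ and 3.86 ± 0.32 in WT CD4+ cells. Cd44 rose by 4.73 ± 0.39, 3.61 ± 0.37, 2.90 ± 0.33 and 2.85 ± 0.33 in those groups in the same order, with a highest adjusted p of 2.15e-07. Cd40lg did not pass the test in any of the 4 groups. Its log2 difference was -0.03 ± 0.29 in Raptor KO CD4+ cells (interval -0.62 to 0.56) and -0.37 ± 0.30 in WT CD4+ cells (interval -0.98 to 0.25). In CD8+ cells it had too few counts for a fold to be read, and in WT CD8+ cells a rise was called with Rn45s in the totals (2.27, adjusted p = 0.0137), without stimulated replicate 2 (adjusted p = 0.0370) and without resting replicate 3 (adjusted p = 0.0169).

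Protein-coding counts made up 31.8% to 47.8% of counts outside Rn45s in stimulated Raptor KO CD8+ libraries, against 18.7% to 29.2% in resting ones, and the part of this in the results was not tested. Scaling to totals with Rn45s put the median log2 difference of all tested genes at 0.33 in Raptor KO CD8+, 0.77 in WT CD8+, -0.09 in Raptor KO CD4+ and 0.25 in WT CD4+ cells. Genes higher and lower then numbered 2801 and 1213 in Raptor KO CD8+ cells, against 3099 and 2733 under TMM, 4527 and 1107 against 3363 and 3229 in WT CD8+ cells, and 3103 and 1887 against 3397 and 3414 in WT CD4+ cells. That scaling kept the direction of every called stimulation change among these genes and ended 5 calls, beside the Cd40lg call it gained. Those ended were Cd27 in CD8+ cells (-0.85, adjusted p = 0.0702 in Raptor KO, and -0.86, adjusted p = 0.0545 in WT), Tnfrsf1b in Raptor KO CD8+ cells (0.89, adjusted p = 0.0587) and Raptor KO CD4+ cells (0.80, adjusted p = 0.110), and Cd28 in WT CD4+ cells (-0.54, adjusted p = 0.241). In bulk RNA, fewer cells with a transcript and less of it per cell cannot be told apart.

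**Figure D2:**
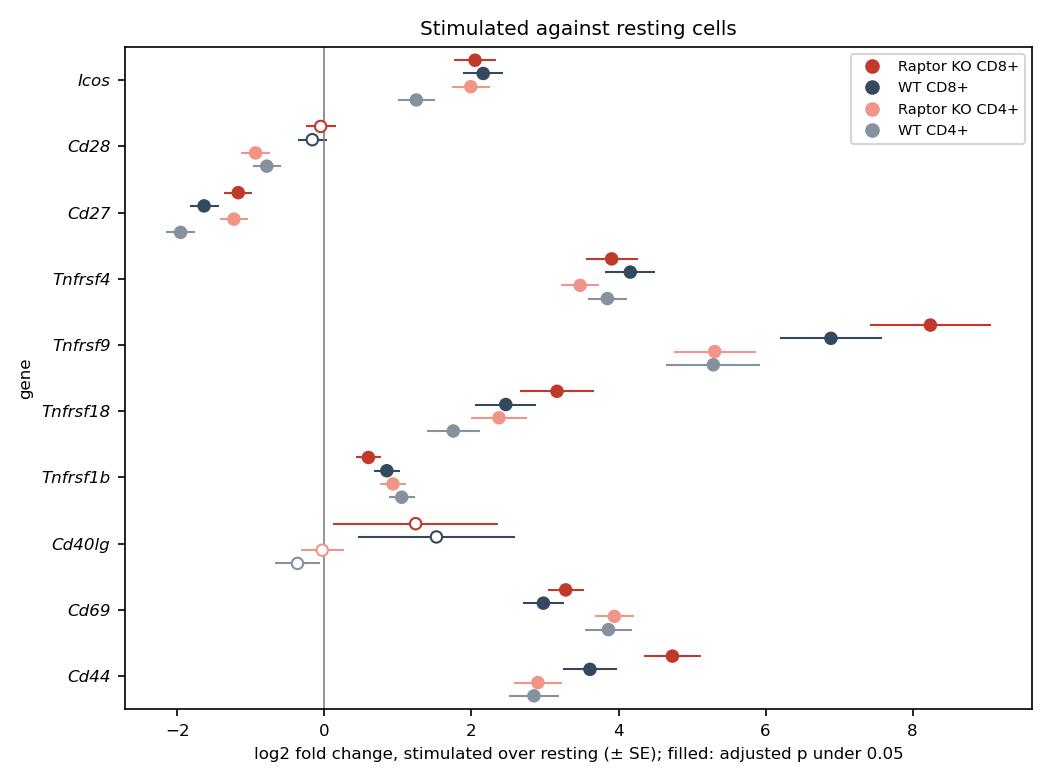
Log2 fold change, stimulated over resting, of the 10 genes in Raptor KO CD8+, WT CD8+, Raptor KO CD4+ and WT CD4+ cells (horizontal axis, bars ± SE from the edgeR fit). Filled points have an adjusted p under 0.05: Tnfrsf9 lies farthest right, at 8.24 in Raptor KO CD8+ cells, and Cd27 is left of 0 in all 4. Tnfrsf9 passed the filter on low counts only through stimulated groups.

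Set per kilobase of annotated exon, the order of the genes changed with stimulation. That exon length runs from 1250 bases for Cd40lg to 6776 for Cd44 and can exceed the length of the transcript present. Levels of different genes can therefore be compared only roughly. In resting WT CD4+ cells Cd27 (32.4 CPM per kb), Cd28 (30.6) and Cd40lg (21.4) led, and Tnfrsf9 was last at 0.807. In stimulated WT CD4+ cells Tnfrsf4 led at 126 CPM per kb and Cd27 stood at 8.49. In stimulated CD8+ cells Tnfrsf9 led in Raptor KO cells, at 164 CPM per kb with Tnfrsf4 at 61.2, and also in WT cells, at 94.7 with Tnfrsf4 at 80.0. In stimulated Rictor KO CD8+ cells Tnfrsf4 was first, at 80.4 CPM per kb, and Tnfrsf9 stood at 56.2.

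Differences between the subsets concerned Cd40lg, Cd28, Tnfrsf4 and Tnfrsf9. Between CD8+ and CD4+ cells, 3 of 10 genes changed in stimulated Raptor KO cells, where 5.36% of all tested genes did, and 3 of 10 in stimulated WT cells, against 5.18%. At rest 3 of 10 changed in Raptor KO cells, against 3.15%, and 2 of 10 in WT cells, against 3.33%. Each of these counts includes Cd40lg, which passed the filter on low counts only through CD4+ groups.

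Cd40lg was a transcript of CD4+ cells in every condition. Stimulated Raptor KO libraries had 0.837, 1.57 and 2.35 CPM in CD8+ cells, against 31.9, 33.8 and 33.5 CPM in CD4+ cells, and stimulated WT libraries had 4.34, 0 and 1.70 CPM, against 24.7, 12.9 and 24.8 CPM. No CD8+ library reached the lowest CD4+ library. The log2 differences of Cd40lg, CD8+ over CD4+, were -4.19 ± 0.59 in stimulated Raptor KO cells and -3.25 ± 0.48 in stimulated WT cells. Cd40lg passed the filter on low counts only through CD4+ groups, so no p-value is given for these differences. At rest the CD8+ groups held 3 counts of Cd40lg each, over 3 libraries, and the CD4+ groups held 158 in Raptor KO and 133 in WT. The ratio of CD4+ to CD8+ was 48.1 in Raptor KO (95% interval 16.2 to 236) and 38.3 in WT (12.8 to 188), where the intervals cover counting error only.

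Cd28 was lower in CD8+ than in CD4+ cells at rest, by 1.43 ± 0.20 in Raptor KO (adjusted p = 1.36e-05) and by 1.24 ± 0.20 in WT (adjusted p = 0.00011) on the log2 scale. Resting Raptor KO libraries had 73.2, 65.5 and 76.7 CPM of Cd28 in CD8+ cells, against 165.5, 204.3 and 211.1 CPM in CD4+ cells. Tnfrsf9 was higher in stimulated CD8+ cells, by 1.70 ± 0.29 in Raptor KO (adjusted p = 0.00112) and 1.52 ± 0.29 in WT (adjusted p = 0.00321). The WT call was lost when those groups were fitted alone (1.52, adjusted p = 0.142 for Tnfrsf9). Tnfrsf4 was lower in stimulated CD8+ cells, at -0.89 ± 0.20 in Raptor KO (adjusted p = 0.00497) and -0.65 ± 0.19 in WT (adjusted p = 0.0423). The WT call for Tnfrsf4 was lost when any 1 of the 6 libraries was left out, with values of -0.72 to -0.58, and so was the resting Raptor KO call (-1.32 ± 0.39, adjusted p = 0.0488) without 5 of its 6 libraries (-1.37 to -1.06). Libraries of the same number varied together in that resting comparison, where their deviations had correlations of 0.324, 0.191 and 0.363, and with the number as a block the Tnfrsf4 difference was not called (-1.32, adjusted p = 0.0784). With the library code that the labels give as a block, Icos was called lower in CD8+ cells of stimulated Raptor KO (-0.70, adjusted p = 8.84e-05), resting Raptor KO (-0.77, adjusted p = 0.00253) and resting WT (-0.67, adjusted p = 0.00458). With Rn45s in the totals, Tnfrsf4 was called in neither stimulated comparison (-0.83 in Raptor KO and -0.55 in WT). That scaling put the median of all genes at -0.36 in resting Raptor KO and -0.43 in resting WT cells. Genes higher and lower then numbered 41 and 95 in resting Raptor KO cells, against 173 and 158 under TMM, 45 and 141 against 167 and 182 in resting WT cells, and 122 and 53 against 286 and 276 in stimulated Raptor KO cells.

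Loss of Raptor left higher Cd69 and Cd27 in stimulated cells of both subsets, and no other gene of the 10 passed the main test. Some other settings with the filter and without a block called more. DESeq2 called 3 in CD8+ cells, and a fit of the compared groups alone called 3 in CD4+ cells. In stimulated CD8+ cells 2 of 10 genes rose in Raptor KO, where 11.7% of all tested genes changed and 6.3% were higher. In stimulated CD4+ cells it was again 2 of 10, where 17.4% changed and 8.82% were higher. Cd69 and Cd27 were called in both.

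Stimulated Raptor KO CD8+ libraries had 201.7, 186.1 and 235.2 CPM of Cd69, against 110.4, 94.2 and 82.0 CPM in WT libraries. In CD4+ cells the values were 213.0, 182.7 and 225.3 CPM in Raptor KO libraries, against 120.0, 72.2 and 102.4 CPM in WT libraries. Every Raptor KO library lay above every WT library of its subset. The log2 differences of Cd69 were 1.12 ± 0.20 in CD8+ cells (adjusted p = 0.000385) and 1.08 ± 0.20 in CD4+ cells (adjusted p = 0.000466), and Raptor KO was higher within each of the 3 library codes that the labels give.

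Cd27, which fell with stimulation, stayed at a higher level in Raptor KO cells. Stimulated Raptor KO CD4+ libraries had 39.3, 35.2 and 28.8 CPM of Cd27, against 20.8, 22.3 and 16.2 CPM in WT libraries, with no overlap. The difference was 0.82 ± 0.21 (adjusted p = 0.00414). In CD8+ cells Cd27 stood at 25.1, 28.2 and 40.4 CPM in Raptor KO libraries, against 13.0, 27.3 and 18.4 CPM in WT libraries, and the groups overlapped. That difference was 0.75 ± 0.21 (adjusted p = 0.0112), and the call was lost without WT replicate 1 (0.53), WT replicate 3 (0.72) or Raptor KO replicate 3 (0.49). In CD4+ cells it was lost without WT replicate 3 (0.66).

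These calls depended on the scaling. With Rn45s in the totals, all genes had a median of -0.49 in stimulated CD8+ and -0.46 in stimulated CD4+ cells, and Cd69 stood at 0.61 in CD8+ (adjusted p = 0.297) and 0.62 in CD4+ (adjusted p = 0.278). Cd27 then stood at 0.25 in CD8+ (adjusted p = 0.696) and 0.32 in CD4+ cells (adjusted p = 0.627). Over all genes the split of higher against lower was 661 to 569 in CD8+ and 925 to 898 in CD4+ cells under TMM, and 55 to 404 and 67 to 617 with Rn45s in the totals. Protein-coding counts made up 31.8% to 47.8% of the counts outside Rn45s in stimulated Raptor KO CD8+ libraries, against 49.9% to 62.5% in WT libraries, and 33.4% to 46.5% against 38.9% to 63.6% in CD4+ cells. The part of that difference in the results was not tested.

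Tnfrsf9, Cd44 and Icos showed differences in stimulated CD8+ cells that missed the threshold in the main test. Of 13 other settings, Cd44 was called in 6, Tnfrsf9 in 4 and Icos in 3. The blocks by number and by code are counted apart there, though they split the Raptor KO and WT libraries alike. Tnfrsf9 had a difference of 0.79 ± 0.29 (interval 0.19 to 1.39, adjusted p = 0.0861) and its libraries overlapped. Cd44 stood at 204.2, 311.5 and 232.5 CPM in Raptor KO libraries, against 142.7, 156.8 and 129.8 CPM in WT libraries, which did not overlap, with a difference of 0.81 ± 0.27 (interval 0.25 to 1.36, adjusted p = 0.055). Icos stood at 98.8, 100.9 and 61.6 CPM in Raptor KO libraries, against 128.1, 134.4 and 106.1 CPM in WT libraries, with a difference of -0.51 ± 0.23 (adjusted p = 0.178). In CD4+ cells the Icos difference had the other sign, 0.42 ± 0.23 (adjusted p = 0.233). The difference between the subsets in the Raptor effect on Icos was -0.92 ± 0.33 and did not pass the test (interval -1.61 to -0.24, adjusted p = 0.328). Within each of the 3 library codes Icos was lower in Raptor KO CD8+ cells and higher in Raptor KO CD4+ cells. With the code as a block, Icos was called in CD8+ (-0.53, adjusted p = 0.00204) and CD4+ cells (0.41, adjusted p = 0.0139), and so was the difference between the subsets (-0.94, adjusted p = 0.00187). That block also called Tnfrsf9 in CD8+ (0.83, adjusted p = 0.00141) and CD4+ cells (0.65, adjusted p = 0.0119) and Cd44 in CD8+ cells (0.80, adjusted p = 0.0198). The labels do not say what a code marks.

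Regulatory T cells carry much GITR, OX40 and ICOS. Their 4 listed markers (Foxp3, Ikzf2, Lrrc32 and Gpr83) summed to 135 to 156 CPM in stimulated Raptor KO CD8+ libraries, against 25.5 to 53.5 CPM in stimulated WT libraries, and to 101 to 124 CPM against 39.7 to 61.1 CPM in stimulated CD4+ cells. At rest the sums were 43.2 to 53.1 CPM in Raptor KO CD8+ libraries, against 11.3 to 22.6 CPM in WT libraries, and 46.7 to 64.7 CPM against 50.3 to 59.1 CPM in CD4+ cells. Most of the stimulated sum was Ikzf2, at 131.6 ± 7.19 CPM against 31.7 ± 11.1 CPM in CD8+ and 68.5 ± 10.6 CPM against 26.9 ± 10.8 CPM in CD4+ cells (SD, n = 3 each). Foxp3, the defining marker, stood at 1.32 ± 1.09 CPM in stimulated Raptor KO CD8+ cells, against 0.310 ± 0.277 CPM in WT, and at 9.18 ± 5.52 CPM against 6.70 ± 1.47 CPM in CD4+ cells. The part of such cells in the results was not tested.

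At rest no gene of the 10 passed the test between Raptor KO and WT cells, where 1.12% of tested genes changed in CD8+ and 0.143% in CD4+ cells. At an unadjusted p under 0.05 there were 2 in CD8+ cells, Tnfrsf1b and Cd69, and 1 in CD4+ cells, Cd69. The share of all tested genes at that threshold was not counted. DESeq2 called 0 of the 10 genes in both subsets. Cd69 had 22.0, 23.7 and 17.8 CPM in resting Raptor KO CD8+ libraries, against 18.4, 11.5 and 6.71 CPM in WT libraries (difference 0.82 ± 0.31, adjusted p = 0.307). In resting CD4+ cells it had 10.7, 17.1 and 11.7 CPM in Raptor KO libraries, against 6.26, 5.81 and 7.70 CPM in WT libraries, without overlap (1.00 ± 0.36, adjusted p = 0.388).

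**Figure D3:**
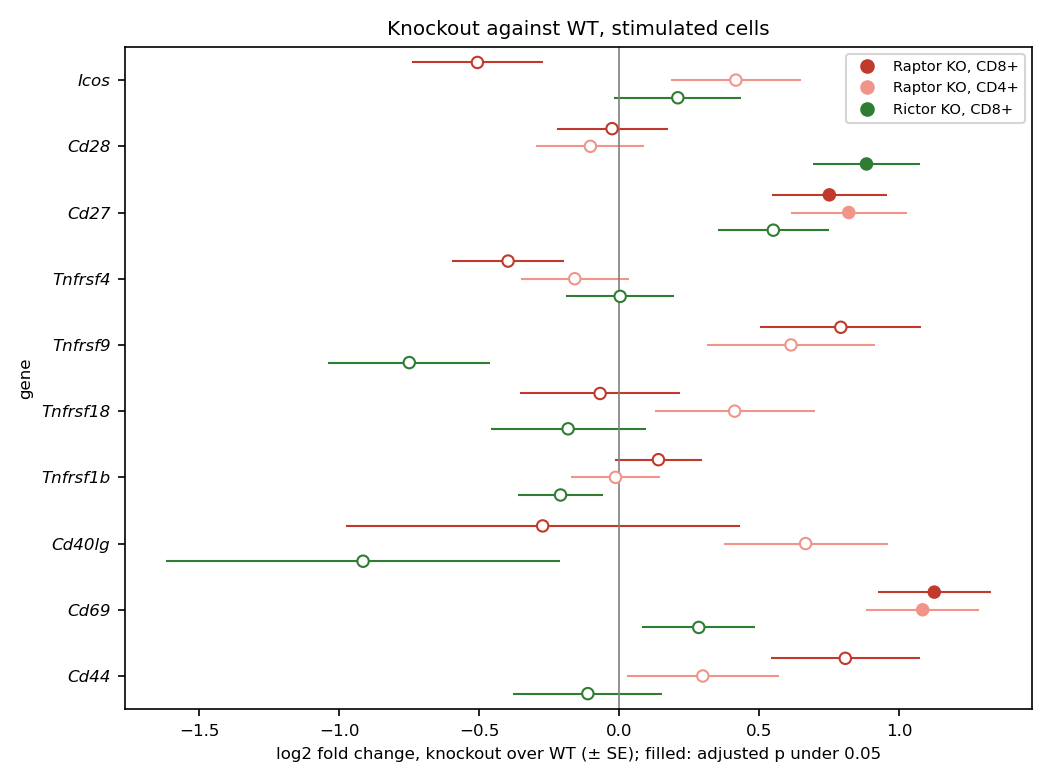
Log2 fold change of the 10 genes in stimulated cells, Raptor KO over WT in CD8+ and CD4+ cells and Rictor KO over WT in CD8+ cells (horizontal axis, bars ± SE from the edgeR fit). Filled points have an adjusted p under 0.05: Cd27 and Cd69 in both Raptor KO comparisons, at 0.75 to 1.12, and Cd28 in Rictor KO cells, at 0.88.

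Loss of Rictor left 1 of the 10 genes, Cd28, higher in stimulated CD8+ cells, where 0.162% of tested genes changed. Rictor KO libraries had 120.8, 121.3 and 148.3 CPM of Cd28, against 72.1, 67.4 and 71.6 CPM in WT libraries, without overlap. The difference was 0.88 ± 0.19 (adjusted p = 0.0449), and the call was lost when any single library of either group was left out (0.78 to 0.93) and with Rn45s in the totals (0.78). All Rictor KO libraries carry 1 library code, shared with 1 WT library, and within it Cd28 averaged 130.1 CPM in Rictor KO (n = 3) and stood at 71.6 CPM in the WT library. Tnfrsf9 had 137.7, 151.3 and 170.0 CPM in Rictor KO libraries, against 274.7, 346.3 and 152.4 CPM in WT libraries (-0.75 ± 0.29, adjusted p = 0.608). The WT library of the shared code was the lowest of the 3 WT libraries, and stood close to the Rictor KO average of 153.0 CPM. With the library code as a block the Cd28 difference was not called (0.87, adjusted p = 0.169) while Icos was (0.59, adjusted p = 0.0272), and with the number as a block Cd28 was not called either (0.88, adjusted p = 0.0605).

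Set directly against each other, the knockouts differed at 5 of 10 genes in stimulated CD8+ cells, where 15.3% of tested genes changed. Raptor KO cells had more Tnfrsf9 (480.5, 517.5 and 337.2 CPM, against 137.7, 151.3 and 170.0 CPM in Rictor KO libraries), with a difference of 1.54 ± 0.29 (adjusted p = 0.00126). They also had more Cd44 (0.92 ± 0.27, adjusted p = 0.0234) and more Cd69 (0.84 ± 0.20, adjusted p = 0.00435). Icos was lower (-0.72 ± 0.23, adjusted p = 0.0409) and so was Cd28, at 60.3, 46.5 and 98.4 CPM in Raptor KO libraries and 120.8, 121.3 and 148.3 CPM in Rictor KO libraries (-0.91 ± 0.19, adjusted p = 0.00138). Libraries of the groups did not overlap for 7 of the 10 genes, these 5 and the uncalled Tnfrsf4 and Tnfrsf1b. The share of all tested genes without overlap was not counted. The Icos call was lost without Raptor KO replicate 3 (-0.51) or Rictor KO replicates 2 (-0.70) or 3 (-0.66), and the Cd44 call without Raptor KO replicate 2 (0.72) or any Rictor KO library (0.87 to 0.95). The Cd44 call was also lost with the library code as a block (0.68, adjusted p = 0.0641). With Rn45s in the totals, Tnfrsf9 (1.08), Cd69 (0.46) and Cd44 (0.49) were no longer called, and 115 genes were higher and 401 lower in all, against 871 and 735 under TMM. Only Raptor KO replicate 3 carries the library code of the Rictor KO libraries. Of the Raptor KO libraries it stood nearest the Rictor KO mean for Cd28 (98.4 against 130.1 CPM) and Tnfrsf9 (337.2 against 153.0 CPM). It stood farthest from that mean for Icos (61.6 CPM) and Cd69 (235.2 CPM), and between the others for Cd44 (232.5 CPM). This contrast shares its Raptor KO and its Rictor KO libraries with the comparisons above.

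The difference of 2 differences was also tested in 4 ways, for stimulation effects between Raptor KO and WT in each subset, between CD8+ and CD4+ WT cells, and for Raptor effects between the subsets. No gene of the 10 passed in these 40 tests with the filter on low counts and without a block, where 2.89%, 5.82%, 1.44% and 0.334% of tested genes did in the comparisons in CD8+ cells, in CD4+ cells, between subsets and of the Raptor effect. At an unadjusted p under 0.05 there were 6 such tests, but the share of all tested genes at that threshold was not counted. DESeq2 called 0 of the 10 genes in these comparisons. The lowest adjusted p was 0.101, for Cd27 in CD4+ cells (stimulation effect in Raptor KO minus WT 0.72 ± 0.27). With the library code as a block Icos passed in 3 of them, the Raptor effect given above, the stimulation effect in Raptor KO minus WT CD4+ cells (0.75, adjusted p = 0.00993) and that in CD8+ minus CD4+ WT cells (0.91, adjusted p = 0.00460).

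Most ligands of these receptors could not be tested. Of 10 listed ligands and counter-receptors, 4 were tested (Cd80, Tnfsf4, Tnf and Lta). Cd86, Icosl, Tnfsf9, Cd70 and Cd40 did not pass the filter on low counts, and Tnfsf18 was not matched to a gene in the table of read counts. Cd80 and Tnfsf4 were low in most groups and passed through groups where they were high, so they are given as levels with no test: in stimulated CD8+ cells Tnfsf4, encoding the OX40 ligand, averaged 14.7 CPM in Raptor KO and 2.35 CPM in WT, and Cd80 4.62 CPM and 13.7 CPM. Lta, encoding lymphotoxin alpha, averaged 133 CPM in stimulated and 3.06 CPM in resting Raptor KO CD8+ cells and 226 CPM and 6.86 CPM in WT CD8+ cells. Stimulation raised Lta by 5.00 ± 0.33 in WT CD8+ and 3.65 ± 0.30 in WT CD4+ cells, and Tnf, which encodes the ligand of TNF receptors, by 2.62 ± 0.47 and 2.22 ± 0.37. Stimulated Raptor KO cells had less Lta (-0.77 ± 0.20 in CD8+, adjusted p = 0.0116, and -0.90 ± 0.21 in CD4+, adjusted p = 0.00388), and so had Rictor KO cells (-1.02 ± 0.20, adjusted p = 0.0223). Tnf was higher in stimulated Raptor KO CD8+ cells (0.94 ± 0.29, adjusted p = 0.041). Lta was called in both Raptor comparisons with Rn45s in the totals as well, while Tnf there and Lta in Rictor KO cells were not.

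Downstream of the TNF receptor family, 16 of 16 listed TRAF and NF-kB genes were tested. Stimulation raised 5 and lowered 5 in WT CD8+ cells (list median -0.01, all genes 0.00), where 62.8% of all tested genes changed, and raised 6 and lowered 4 in WT CD4+ cells (0.16, all genes -0.03), where 64.9% did, so these shares stood near those of all genes. Nfkb2, the precursor of the alternative pathway, rose by 2.97 ± 0.21 in WT CD8+ and 2.64 ± 0.20 in WT CD4+ cells, Nfkb1 by 2.42 ± 0.15 and 2.16 ± 0.14, and Rel by 1.99 ± 0.15 and 1.54 ± 0.15. Traf5, an adaptor of OX40 and CD27, fell by 2.15 ± 0.27 in WT CD8+ and by 2.85 ± 0.30 in WT CD4+ cells. In WT CD8+ cells 7 rose and 1 fell with Rn45s in the totals. Between Raptor KO and WT, 5 genes were higher and 0 lower in stimulated CD8+ cells (list median 0.36, all genes 0.03), against 6.3% of all tested genes higher, and 4 were higher and 1 lower in stimulated CD4+ cells (0.22, all genes 0.04), against 8.82% higher. Birc2, which encodes a ubiquitin ligase bound to TRAF proteins, was higher by 1.38 ± 0.20 and 0.89 ± 0.21, and Nfkbia, an NF-kB inhibitor, by 1.16 ± 0.17 in CD8+ cells, Rel by 1.01 ± 0.14 and 0.83 ± 0.14, and Nfkb2 by 0.56 ± 0.16 in CD8+ cells. Relb (0.78 ± 0.23) and Nfkb1 (-0.53 ± 0.14) completed the largest changes in CD4+ cells, and the genes left, Traf6 in CD8+ (0.52 ± 0.15) and Nfkbia in CD4+ cells (0.52 ± 0.17), were named after their values were seen. With Rn45s in the totals 0 genes of this list were called in either Raptor comparison.

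**Figure D4:**
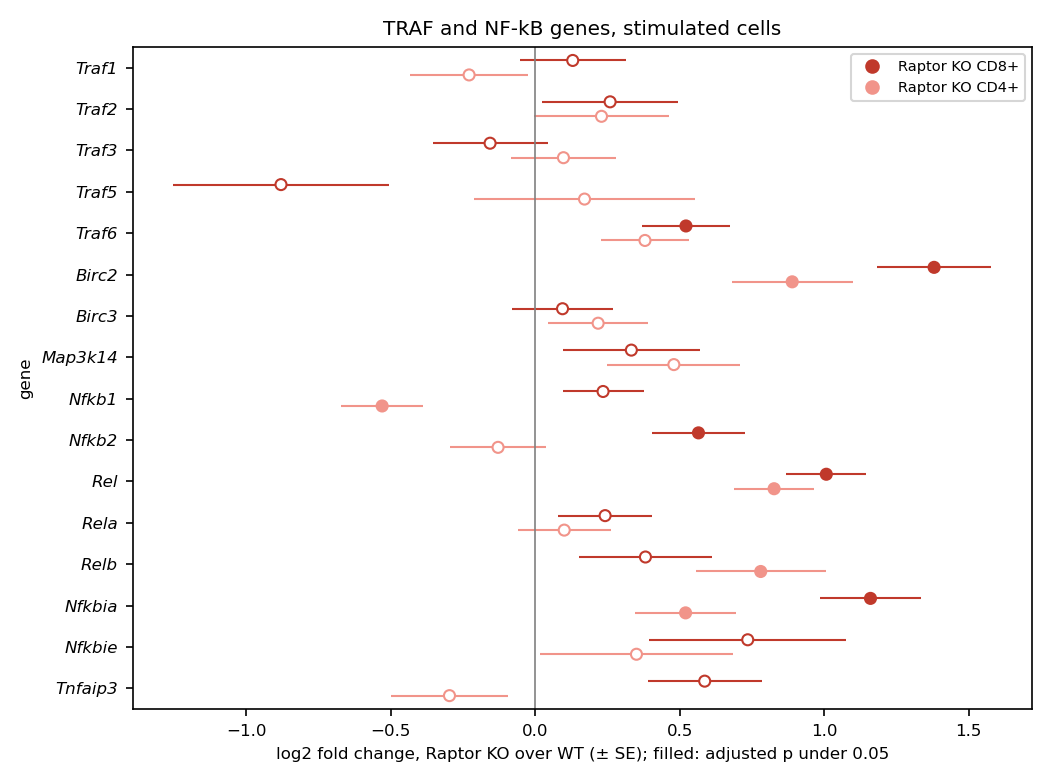
Log2 fold change, Raptor KO over WT, of the 16 listed TRAF and NF-kB genes in stimulated CD8+ and CD4+ cells (horizontal axis, bars ± SE). Filled points have an adjusted p under 0.05 under TMM scaling: Birc2 lies farthest right in CD8+ cells, at 1.38, and 0 of the 16 were called with Rn45s in the totals.

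Of the 14 listed genes of CD28 and ICOS proximal signalling, all tested, stimulation lowered 7 and raised 2 in WT CD8+ cells, where 30.8% of all tested genes were lower and 32% higher, and lowered 7 and raised 3 in WT CD4+ cells, where 32.5% were lower and 32.4% higher. Grap2, an adaptor that binds CD28, fell by 2.12 ± 0.14 in CD8+ and by 2.98 ± 0.14 in CD4+ cells, and Prkcq, encoding protein kinase C theta, fell by 2.18 ± 0.15 in each. Of PI3 kinase subunits, Pik3cd fell by 1.53 ± 0.16 in CD8+ and Pik3r1 fell by 1.67 ± 0.14 in CD4+ cells. The list median in WT CD8+ cells with Rn45s in the totals was 0.39 in place of -0.40, and 3 rose and 3 fell. Between Raptor KO and WT, 1 of the 14 was higher in stimulated CD8+ cells (list median -0.04), against 6.3% of all tested genes. In stimulated CD4+ cells 3 were higher (list median 0.125), against 8.82%, and 0 were lower in either subset. Malt1, a protease on the way to NF-kB, was higher in stimulated CD8+ cells (1.20 ± 0.16, adjusted p = 6.65e-07), and Pik3r1 was higher in stimulated CD4+ cells (0.83 ± 0.15). Neither was called with Rn45s in the totals.

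The genes whose group means moved most like each of the 10 were sought among 6721 protein-coding genes, by Pearson's r of mean log2 CPM over the 9 groups. The pairs are Myg1 and Lsm4 for Icos, Ddr1 and Ttll5 for Cd28, Tia1 and Avl9 for Cd27, Ptpn7 and Dynll2 for Tnfrsf4, and Nfkb2 and Cops7a for Tnfrsf9. For the others they are Eloc and Dlgap5 for Tnfrsf18, Abcc1 and Smarcb1 for Tnfrsf1b, Cd4 and Zbtb7b for Cd40lg, Rps26 and Tubb5 for Cd69, and Arpp19 and Nfkb2 for Cd44. Values of r were 0.91 (Ttll5 with Cd28) to 0.99, and the groups share the same libraries and scaling. Among the 10, Cd40lg stood with the CD4 lineage genes Cd4 (r = 0.98) and Zbtb7b (0.96).

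Ordered by level, Icos had its highest means in stimulated Rictor KO CD8+ (142 CPM) and Raptor KO CD4+ cells (141 CPM), and libraries of neighbouring stimulated groups overlapped down to Raptor KO CD8+ cells (87.1 CPM). Below them a gap without overlap separated the resting groups, at 20.5 to 44.7 CPM. For Cd69 the leading groups were stimulated Raptor KO CD8+ and CD4+ cells, at 208 and 207 CPM, which overlapped each other and did not overlap Rictor KO CD8+ cells, at 117 CPM. For Cd28 the resting CD4+ groups led, at 194 CPM in Raptor KO and 187 CPM in WT, and stimulated Rictor KO CD8+ cells followed at 130 CPM without overlap.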

How the data were processed

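RNA was measured in 27 libraries of mouse T cells. Total RNA was fragmented by ultrasound and ligated to a 3′ adaptor before PCR, per the labels' protocols. The submitters' processing notes name STAR 2.6.0a and GRCm38, and the counter and strandedness were not given in the sources used. The deposited values are raw read counts per gene in 1 table. Of 26802 genes, 26765 matched the reference annotation and 37 did not.

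Rn45s was left out of scaling and testing, a choice made with earlier results of these data known. Testing used edgeR 4.0.16 in R 4.3.3: low-count filter by group (minimum count 10, total 15), TMM, 1 mean per group over all 27 libraries, robust quasi-likelihood tests and Benjamini-Hochberg adjustment at 0.05, in 18 comparisons. The common coefficient of variation was 0.187, and steps were tested on simulated data. Libraries of a group differed beyond counting noise (lowest chi-square per degree of freedom 2.68). The genes and the lists were chosen with earlier results of these data known. Named list genes are the up to 4 with the largest change past the threshold per list and comparison, of which some are not reported here, and the genes of like pattern are the 2 with the highest r among protein-coding genes of at least 10 CPM (log2 of CPM plus 0.5). Other settings tried were size factors from median ratios, no filter, totals with Rn45s, the compared groups alone, DESeq2 1.42.0, blocks by library number or code, and leaving out each library.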

Additional observations from a re-analysis of the deposited data

How the results depend on the processing

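Of 55 called differences among the 10 genes, 36 were called under every alternative, 19 were lost under at least 1, and 0 changed sign. Median-ratio size factors and DESeq2 lost 0 of the 55, totals with Rn45s lost 15, and leaving out a library lost 28 of 330 results over 27 refits. Genes called among the 10 in stimulated Raptor KO against WT CD8+ cells, 2 in the main test, numbered 5 without a filter and 3 with DESeq2. They numbered 0 with Rn45s totals and 1 to 3 with a library left out. In CD4+ cells, also 2, they numbered 3 without a filter, with the compared groups alone or with the number block. They numbered 0 with Rn45s totals and 1 to 2 with a library left out. Rictor KO against WT, 1, gave 2 without a filter and 0 with Rn45s totals or with any library left out. Raptor KO against Rictor KO, 5, gave 6 without a filter or with DESeq2, 2 with Rn45s totals and 3 to 5 with a library left out. CD8+ against CD4+ gave 5 without a filter in place of 3 in resting and in stimulated Raptor KO cells, and 2 to 3 at rest with a library left out. CD8+ against CD4+ stimulated WT cells gave 2 with Rn45s totals or the compared groups alone, 2 to 3 with a library left out, and in resting WT cells 3 with the block. The Raptor effect between subsets gave 1 (Icos) without a filter, against 0.

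The labels do not say what a library number or code marks. Outside Rictor KO each number goes with the same code in every group. The number and code blocks therefore split those libraries alike and are not independent settings. Own-number correlations were -0.151 (Rictor KO against WT) to 0.363, 25 of 42 were the best for their number, and all 3 exceeded 0.1 in 1 of 14 comparisons, resting Raptor KO CD8+ against CD4+. With the number as a replicate block, 10 further differences were called and 2 of 55 lost: Raptor KO against WT gave 5 in CD8+ cells, Rictor KO against WT 0, and Icos gave 1 in each of 3 interactions (Raptor KO minus WT in CD4+ cells, CD8+ minus CD4+, Raptor effect). With the library code as the replicate block 14 were gained and 3 lost: Raptor KO against WT gave 5 in CD8+ and 4 in CD4+ cells, CD8+ against CD4+ stimulated Raptor KO gave 5, and the same 3 interactions gave 1. The causes were not tested. Over all genes, calls numbered 17 in Rictor KO against WT, 61 without a filter, 37 with the compared groups alone, 52 with the number block and 1 to 27 with a library left out. Raptor KO against WT gave 1823 in stimulated CD4+ (1138 to 1714 with a library left out) and 1230 in stimulated CD8+ cells (753 to 1100). In those CD4+ and CD8+ cells it gave 2021 and 1472 with the number block, and 2121 and 1546 with the code block. It gave 1612 and 1169 there without a filter, and 1514 and 1047 with DESeq2. At rest it gave 15 in CD4+ cells, 29 without a filter, 31 and 34 with the blocks, and 118 in CD8+ cells, 58 to 97 with a library left out and 197 with the code block. Raptor KO against Rictor KO gave 1606 (997 to 1443), and resting Raptor KO CD8+ against CD4+ 331 (199 to 264, and 195 with the compared groups alone). The interactions gave 611 for Raptor KO minus WT in CD4+ (375 to 664), 151 for CD8+ minus CD4+ (234 with the code block) and 35 for the Raptor effect (17 to 45, with 75, 55, 75 and 18 without a filter, with the number block, with the code block and with the compared groups alone). With Rn45s totals the counts were 684 and 459 in stimulated Raptor KO CD4+ and CD8+ against WT, 23 at rest in CD8+, 5 in Rictor KO, 516 between knockouts, 3261 in place of 5453 for stimulation of Raptor KO CD4+ cells, 175, 181, 136 and 186 for CD8+ against CD4+ (stimulated Raptor KO, 562 in the main test, stimulated WT, 544, resting Raptor KO, 331, resting WT, 349), and 24, 38, 49 and 2 in the interactions (main 611, 303, 151 and 35). Depth limits Cd40lg in CD8+ cells and Tnfrsf9 at rest.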

Other observations

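Other costimulatory receptors of T cells, 9 of 9 listed genes tested, changed about as often with stimulation as all genes did. In WT CD8+ cells 2 rose and 4 fell, where 32% of all tested genes rose and 30.8% fell, and in WT CD4+ cells 2 rose and 3 fell, where 32.4% rose and 32.5% fell. Slamf1, a self-binding receptor of the SLAM family, rose by 2.22 ± 0.35 in WT CD8+ cells, while its relatives Slamf6 fell by 3.02 ± 0.49 and Cd84 fell by 2.72 ± 0.25. In WT CD4+ cells Cd84 fell by 2.36 ± 0.22, Tnfrsf25 by 2.10 ± 0.38 and Slamf6 by 2.03 ± 0.40. Tnfrsf8, which encodes CD30, held 0 counts in resting WT cells and averaged 6.47 CPM in stimulated WT CD8+ and 10.3 CPM in stimulated WT CD4+ cells. It is 1 of the 2 that rose in each subset, but it passed the filter only through stimulated groups and is given as levels only, 1.26 CPM in stimulated Raptor KO CD8+ and 2.46 CPM in stimulated Raptor KO CD4+ cells. Between Raptor KO and WT, 0 of the 9 were higher and 1 lower in stimulated CD8+ cells, where 11.7% of all tested genes changed. In stimulated CD4+ cells 2 were higher and 1 lower, where 17.4% changed. In stimulated CD4+ cells Cd2 (0.88 ± 0.19) and Slamf1 (0.59 ± 0.21) were higher in Raptor KO, which was not called with Rn45s in the totals.

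The 6 listed RNA-binding repressors of activation transcripts, among them the Roquin genes, whose products bind Icos mRNA, fell with stimulation in WT cells: 6 of 6 in CD8+ cells, where 30.8% of all tested genes fell, and 4 of 6 in CD4+ cells, where 32.5% did, with 0 higher. Zfp36 fell by 1.91 ± 0.18 in WT CD8+ and by 1.55 ± 0.16 in WT CD4+ cells, Rc3h2 (Roquin-2) by 1.37 ± 0.15 and by 1.01 ± 0.15, and Zfp36l2 by 0.92 ± 0.14 and by 1.19 ± 0.14 in those cells. Zfp36l1 fell by 0.89 ± 0.31 in CD8+ cells and Zc3h12a by 0.70 ± 0.24 in CD4+ cells. With Rn45s in the totals 1 of 6 fell in CD8+ and 2 of 6 in CD4+ cells. Of the 6, 1 was higher in stimulated Raptor KO CD8+ cells and 2 in stimulated CD4+ cells, against 6.3% and 8.82% of all tested genes. In both subsets 0 were lower. Rc3h2 was higher in stimulated Raptor KO cells, at 71.9 CPM on average against 35.8 CPM in WT CD8+ cells (1.01 ± 0.15, adjusted p = 5.13e-06), and by 0.67 ± 0.15 in CD4+ cells, where Zc3h12a (Regnase-1) was higher by 0.67 ± 0.24. These calls were lost with Rn45s in the totals.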
